A study of Mus musculus with 2 samples.

Results

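The cells described here are thymic epithelial cells of mice that carry RNA of at least 3 of the 7 genes Nos2, Prap1, Fabp9, Lypd8, Saa3, Ces2c and Anxa10, and of fewer than 3 of the 6 microfold genes Gp2, Ccl20, Ccl9, Tnfaip2, Spib and Sox8. They are called the Nos2 population. The rule was applied to barcodes with at least 500 genes, at least 1000 UMIs (unique molecular identifiers, each standing for 1 captured RNA molecule) and at most 10% of UMIs from mitochondrial genes. It found 580 of 7621 cells. These were 233 of 3584 cells in the library labelled Foxp1 KO and 347 of 4037 cells in the library labelled Foxp1 WT.

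The study sorted live EPCAM+ cells from dissociated mouse thymi by FACS after a Percoll gradient, and sequenced single cells to ask what the forkhead factor Foxp1 does for Fezf2-dependent expression and for the diversity of medullary epithelium. The KO-labelled library is Cre+ by its library name and the WT-labelled library is Cre-, while the genotype field reads KO for both. The Cre driver, the deleted part of Foxp1, and the number, age and sex of the mice were not stated in any source used. With 1 library per group there was no replicate, so there are no tests, p-values or standard errors, and intervals are at 95% and cover counting error only.

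The deposited matrices held 4277 barcodes in the KO-labelled library and 4957 in the WT-labelled one, of which 83.8% and 81.4% passed the cell filter, with medians of 5097.5 and 6267 UMIs. Members were deeper, with medians of 8490 UMIs in the KO-labelled library and 9596 UMIs in the WT-labelled one. The libraries shared 5 barcodes, none of them a member. Foxp1 itself went against the labels. Its whole-gene count in members was 289.5 CPM (a gene's share of all UMIs of the same cells, on the usual CPM scale) in the KO-labelled library and 183 CPM in the WT-labelled one (log2 ratio 0.66 [0.51, 0.82]). In the other epithelial cells it was 433 and 275 CPM. A count outside the deleted part checks nothing, 4 annotated genes overlap Foxp1 on the same strand, and every direction below rests on the labels.

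Medullary thymic epithelial cells (mTECs) show developing T cells the proteins of peripheral tissues, which removes or diverts T cells that would attack those tissues. Aire and Fezf2 are regulators of this expression. Some mTECs, called mimetic cells, go further and take on the lineage factors and gene programme of a peripheral cell type, among them tuft, neuroendocrine, microfold and enterocyte- or hepatocyte-like cells. Hnf4g and Hnf4a, nuclear receptors of intestinal and hepatic epithelium, are lineage factors of that last kind.

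The promoters of 4 genes of these cells are shown because they hold a match to a motif of a factor named for such cells, either the HNF4 direct repeat (CAAAGNNCA) or the NF-kB consensus site, searched on both strands. They are RefSeq promoters on the build GRCm38.p6, 250 bases before to 50 bases after a start site, written on the gene's strand with the match in capitals. Saa3 (chr7:46715627-46715926, minus strand) encodes an acute-phase serum amyloid and has the HNF4 repeat 22 bases before its start. Ces2c (chr8:104846818-104847117, plus strand) encodes a carboxylesterase and has the NF-kB motif 141 bases before its start. Apoa4 (chr9:46240594-46240893, plus strand) encodes an apolipoprotein of intestinal lipid transport and has the HNF4 repeat 182 bases before its start. Muc13 (chr16:33794239-33794538, plus strand, the second of 2 starts) encodes a membrane mucin of the gut and has the HNF4 repeat on the other strand 186 bases before its start. Igf1, one of the leading genes described below, also has the HNF4 repeat, on the other strand 190 bases before its start, and is not shown.
Saa3: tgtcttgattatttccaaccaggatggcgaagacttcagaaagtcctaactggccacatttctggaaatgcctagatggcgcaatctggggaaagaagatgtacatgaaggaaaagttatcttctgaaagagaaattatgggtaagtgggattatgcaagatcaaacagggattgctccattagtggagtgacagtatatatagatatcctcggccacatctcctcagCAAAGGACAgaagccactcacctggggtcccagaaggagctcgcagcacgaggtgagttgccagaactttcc
Ces2c: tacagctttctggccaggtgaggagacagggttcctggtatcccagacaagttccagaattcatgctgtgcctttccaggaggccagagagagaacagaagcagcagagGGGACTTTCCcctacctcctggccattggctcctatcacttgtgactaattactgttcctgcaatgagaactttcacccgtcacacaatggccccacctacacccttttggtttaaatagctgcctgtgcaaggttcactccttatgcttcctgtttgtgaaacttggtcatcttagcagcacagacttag
Apoa4: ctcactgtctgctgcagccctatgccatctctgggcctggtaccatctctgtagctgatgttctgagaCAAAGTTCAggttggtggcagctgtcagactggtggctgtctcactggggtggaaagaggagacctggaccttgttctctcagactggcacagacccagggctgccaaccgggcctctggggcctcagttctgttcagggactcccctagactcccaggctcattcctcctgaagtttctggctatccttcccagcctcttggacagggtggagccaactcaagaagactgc
Muc13: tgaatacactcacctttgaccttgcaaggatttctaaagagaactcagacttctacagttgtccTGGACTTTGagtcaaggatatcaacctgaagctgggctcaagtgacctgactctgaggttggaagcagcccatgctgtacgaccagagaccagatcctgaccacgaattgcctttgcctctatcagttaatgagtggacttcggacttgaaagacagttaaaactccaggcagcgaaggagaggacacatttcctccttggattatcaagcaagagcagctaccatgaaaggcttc
The HNF4 repeat was present in 2089 of all 32851 RefSeq promoters (6.36%). It was found in 1 of 6 promoters of the rule genes (5 of 7 genes matched), 3 of 12 promoters of the leading genes described below (11 of 15 matched) and 4 of 15 promoters of the enterocyte list (14 of 15 matched). The NF-kB motif was in 394 of all promoters (1.2%), in 1 of 6 of the rule genes and in 0 of 12 and 0 of 15 of the other 2 groups. These numbers are too small to set apart from the share of all promoters, and a match says nothing about binding.

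The 7 genes that chose the cells are given first as a description. Nos2 (ENSMUSG00000020826, chr11:78920787-78960254 on mm10, plus strand) encodes the inducible nitric oxide synthase. It stood at 324 CPM [301, 348] in members of the KO-labelled library and at 315 CPM [297, 334] in those of the WT-labelled library, and 76.4% and 75.8% of members had a UMI. In the other epithelial cells it was at 37.8 and 54.9 CPM. Nos2 was thus the most widely detected of the 7 genes in both libraries. Among cells with non-epithelial markers and no Epcam UMI, 11.6% of 189 cells and 8.42% of 95 cells had a Nos2 UMI, at median depths of 2782 and 3532 UMIs. Whether these UMIs were background RNA or RNA of those cells, which include myeloid and endothelial types, was not tested.

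Lypd8, an anti-bacterial surface protein of colonic epithelium, was found in 72.1% of KO-labelled and 63.7% of WT-labelled members. Saa3 was found in 52.4% and 58.2%. Ces2c was found in 50.2% and 50.1%, and Anxa10, an annexin of gastric epithelium, in 53.2% and 48.7%. Prap1, a secreted proline-rich acidic protein of the gut, and Fabp9, a testis member of the fatty acid binding proteins, were rarer, at 32.6% and 35.7% of members for Prap1 and 36.1% and 39.8% for Fabp9. The 7 genes were therefore not one block: the most frequent pair, Nos2 with Lypd8, was shared by 52.4% of KO-labelled and 47.3% of WT-labelled members, and the rarest, Prap1 with Fabp9, by 11.2% and 10.7%. Only 3 and 4 cells had all 7 genes, while 123 of 233 and 186 of 347 members had exactly 3.

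Saa3 had the highest level, 1548 CPM [1497, 1599] in KO-labelled and 1185 CPM [1150, 1221] in WT-labelled members. In both libraries a single member held 17.8% and 18.0% of these UMIs. Fabp9 stood at 486 and 533 CPM, Prap1 at 390.5 and 304 CPM, Anxa10 at 197 and 216 CPM, and Ces2c at 148 and 129 CPM. All 7 genes stood higher in members than in microfold-type cells, Aire-high cells and the other epithelial cells, which choosing cells by these genes favours. Just inside the threshold, cells with exactly 3 of the genes had a summed level of the 7 of 2547 CPM in the KO-labelled library and 2011 CPM in the WT-labelled one. Just outside it, the 175 and 323 epithelial cells with exactly 2 had 1052 and 1051 CPM.

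**Figure D1:**
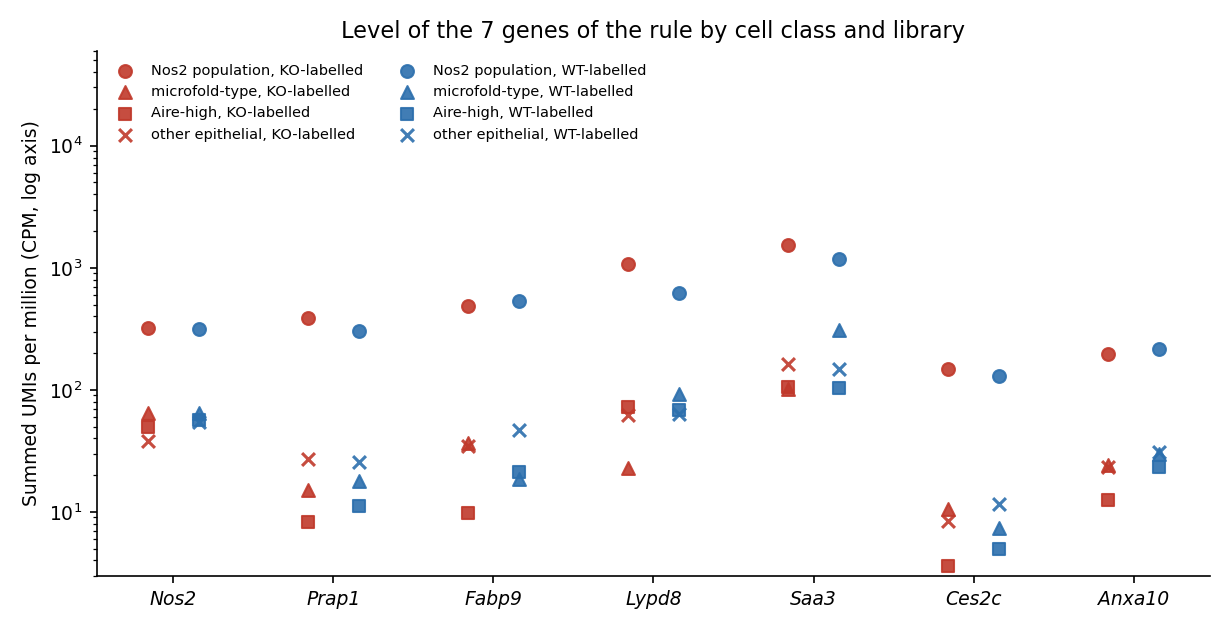
Level of the 7 genes of the rule (CPM, log axis) in the Nos2 population (circles), microfold-type cells (triangles), Aire-high cells (squares) and the other epithelial cells (crosses), with the KO-labelled library in red on the left of each gene and the WT-labelled library in blue on the right. The circles stand above the other symbols at each gene because the rule chose the cells by these genes, and Saa3 is highest at 1548 and 1185 CPM.

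The Nos2 population took a smaller share of the KO-labelled library. It was 6.50% [5.72, 7.36] of cells there and 8.60% [7.75, 9.50] in the WT-labelled library (log2 ratio -0.40 [-0.63, -0.17]). The ratio stayed below 0 under each setting tried, between -0.52 with Lypd8 left out of the rule and -0.26 with the stricter cell filter or with each cell thinned to 1000 UMIs. Since the rule counts detected genes and the KO-labelled library was shallower, the rule was also applied after thinning each cell to 2000 UMIs. The shares were then 99 of 3033 cells (3.26% [2.66, 3.96]) and 148 of 3596 cells (4.12% [3.49, 4.82]), a log2 ratio of -0.33 [-0.69, 0.03] whose interval includes 0. At 1000 UMIs they were 1.90% and 2.28% (-0.26 [-0.71, 0.18]). At equal depth a lower share was not detectable beyond counting error.

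Without thinning, a lower share was not particular to these cells. The classes below are also called by detected genes or UMIs, and their shares were not taken at equal depth, so their ratios carry the same limit. Microfold-type cells, defined by 3 of the 6 microfold genes and fewer than 3 of the 7, took 4.52% of the KO-labelled library and 6.37% of the WT-labelled one (-0.49 [-0.77, -0.22]). Aire-high cells, which had at least 3 Aire UMIs and were in neither class, took 12.8% and 16.7% (-0.38 [-0.54, -0.23]). Cells that passed both gene rules, and were thus left out of both classes, took 2.34% and 3.22% (-0.46 [-0.85, -0.07]). They were the deepest, with medians of 13236.5 and 15436.5 UMIs. Shares are of sorted cells. Cells with non-epithelial markers outside members, microfold-type cells and cells passing both rules took 10.5% of the KO-labelled library and 6.02% of the WT-labelled one. Leaving out every cell with such markers, whatever its class, left 3110 and 3675 cells. The ratio was then -0.37 [-0.63, -0.12].

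**Figure D2:**
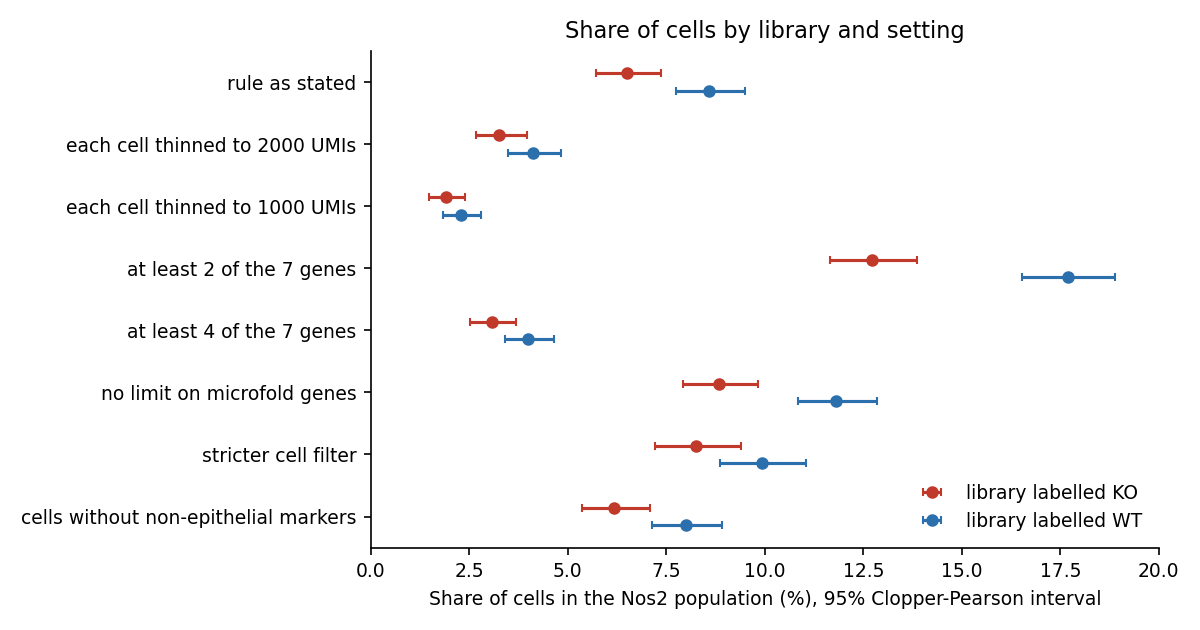
Share of cells in the Nos2 population (%, points with 95% Clopper-Pearson intervals) in the KO-labelled library (red, upper point) and the WT-labelled library (blue, lower point) under the rule as stated and 7 other settings. The KO-labelled point lies left of the WT-labelled point in each row, and with thinning to 2000 UMIs the intervals overlap at 3.26% and 4.12%.

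The label of these cells names gut and liver, so their markers were checked against the other epithelial cells within each library. These comparisons describe the cells and are no test, since the rule genes were chosen for this pattern. Of 8436 genes with at least 100 UMIs over members, 418 (4.95%) were at least 2-fold higher than in the other epithelial cells in both libraries and 133 (1.58%) at least 2-fold lower. Of the 15 enterocyte genes listed, 12 passed the minimum and 9 of these were at least 2-fold higher in both libraries, with medians of 1.80 and 1.44 on the log2 scale against 0.01 and 0.00 over all genes. Members that pass a minimum because they are high had to differ, so this count is a description.

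Some absorptive markers passed the minimum and others were near 0. Sis, the brush border sucrase-isomaltase, stood at 97.1 CPM in KO-labelled members and 62.2 CPM in WT-labelled members, against 7.60 and 7.22 CPM in the other epithelial cells. Only 9.87% and 9.80% of members had a Sis UMI, so it came from a few cells. Cdh17, the liver-intestine cadherin, was more even, with a UMI in 39.9% and 37.5% of members at 85.9 and 71.7 CPM, against 24.7 and 23.1 CPM in the other epithelial cells. Vil1, the microvillus protein villin, stood at 70.3 and 70.9 CPM against 25.5 and 29.7 CPM, and the protease Mep1a at 67.3 CPM in both, against 23.4 and 18.0 CPM. Fabp2, the intestinal fatty acid binding protein, was detected in 4.72% and 4.32% of members only. Lactase, Lct, stood at 0 and 1.09 CPM in members, the intestinal phosphatase Alpi at 1.29 and 2.72 CPM, and the aminopeptidase Anpep at 2.16 and 5.70 CPM.

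The liver side of the label rested on fewer genes. Of 15 hepatocyte genes 5 passed the minimum, of which Apoc3, Ttr and Trf were at least 2-fold higher in both libraries. The defining secreted proteins were nearly absent. Alb, albumin, had 18 UMIs in KO-labelled and 21 UMIs in WT-labelled members, Ahsg had 1 in each, Fgb 2 in each, and Fga 1 and 3. Hamp, the iron hormone hepcidin, was abundant at 1239.6 CPM [1195, 1286] and 446 CPM [425, 468], with a UMI in 42.1% and 36.0% of members. A single KO-labelled cell held 30.4% of the Hamp UMIs of its library. Ttr, the thyroid hormone carrier, was at 293 and 164 CPM, but 81.0% of the KO-labelled UMIs lay in 1 cell. At least 3 enterocyte genes were detected in 49.4% and 50.1% of members, and at least 3 hepatocyte genes in 12.4% and 11.5%. In the other epithelial cells, with medians of 4628 and 5561 UMIs, these shares were 9.77% and 13.8%, and 1.78% and 1.95%. The counts were not made at equal depth. Other lists reached the same count in members. Aire-stage genes did so more often than enterocyte genes, in 79.0% and 81.3%, against 34.5% and 43.7% of the other epithelial cells. Ccl21-type mTEC genes did so in 44.6% and 52.2%, against 65.9% and 61.6%. Neuroendocrine genes did so in 21.9% and 23.6%, against 9.53% and 10.6%, and cortical genes in 18.0% and 26.5%, against 9.90% and 13.8%. At least 3 enterocyte markers were thus detected in many of the cells, while the liver side was a partial set of transcripts. Neither side was confined to members. The enterocyte list summed to 1604 and 1281.5 CPM in members, 728 and 982 CPM in microfold-type cells, and 377 and 426 CPM in the other epithelial cells. For the hepatocyte list these sums were 2220 and 1060 CPM, 1260 and 808 CPM, and 558 and 360 CPM.

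Of the lineage factors, Hnf4g (chr3:3508030-3658052, plus strand) was the clearest. It stood at 298 CPM [276, 321] in KO-labelled and 266 CPM [249.9, 284] in WT-labelled members, against 85.2 and 92.6 CPM in the other epithelial cells, and 63.9% and 62.0% of members had a UMI. Hnf4a had 17 and 22 UMIs in all and did not pass the minimum. Of 31 endoderm factors 15 passed, and Hnf4g and Vdr, the vitamin D receptor, were the 2 at least 2-fold higher in both libraries. Vdr stood at 75.1 and 89.6 CPM against 31.6 and 37.9 CPM. Cdx1, an intestinal homeobox factor, was at 126 and 143 CPM, close to the 115 and 123 CPM of the other epithelial cells.

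The 15 leading genes outside the rule were the genes detected in at least 20% of members of each library with the largest ratio over the other epithelial cells, taking the smaller of both libraries. Apoc3, an inhibitor of triglyceride clearance, stood at 368 CPM in KO-labelled and 267 CPM in WT-labelled members, against 28.5 and 28.9 CPM in the other epithelial cells, log2 ratios of 3.69 and 3.21. Apoc2, the cofactor of lipoprotein lipase, stood at 641 and 576 CPM against 57.6 and 62.6 CPM. Apoa4 stood at 249 and 300.3 CPM against 43.9 and 52.9 CPM. Soat2, which esterifies cholesterol in enterocytes and hepatocytes, stood at 61.7 and 72.2 CPM against 9.52 and 13.8 CPM.

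Spink1, a trypsin inhibitor, had the highest level of the 15, 1458 CPM in KO-labelled and 2254 CPM in WT-labelled members, against 236 and 351 CPM in the other epithelial cells. A single member held 23.4% and 18.1% of its UMIs. Subcluster 3, described below, held 80.5% of them, with Spink1 at 11352 CPM there and 441 CPM in the other members of both libraries. The same subcluster held 65.1% of the Apoc3 and 56.6% of the Apoc2 UMIs, so these levels were uneven among members. Saa1, a serum amyloid, stood at 456 CPM in KO-labelled and 453 CPM in WT-labelled members, against 63.4 and 93.3 CPM in the other epithelial cells. Muc13 stood at 195 and 211 CPM against 38.7 and 40.5 CPM. Cybb, a subunit of the phagocyte NADPH oxidase, was at 106 and 121 CPM against 22.5 and 23.7 CPM, and Ebi3, a cytokine subunit, at 92.8 and 85.3 CPM against 15.5 and 17.8 CPM. The growth factor gene Igf1 was found in 48.1% and 53.6% of members, at 479.8 and 416 CPM against 82.4 and 83.5 CPM.

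The other 5 of the 15 were the cytochrome P450 Cyp3a13 (log2 ratios of 3.12 and 2.33), the nucleoside phosphorylase Pnp2 (3.47 and 3.03), Smtnl1 (2.61 and 2.74), Tstd1 (3.55 and 2.59) and 2210407C18Rik (3.05 and 2.49). Apoc2, Cyp3a13, Pnp2 and Tstd1 share a strand and bases with another annotated gene, and the serum amyloid genes are near copies of each other, so their counts are less certain. All 15 stayed at least 2-fold higher in both libraries with equal weight per cell, with at least 4 rule genes, without the highest doublet scores and without the 2 subclusters described below that carry genes of other cell types. The 15 were chosen for the largest ratios in these same cells, so this count is a description and no independent check.

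**Figure D3:**
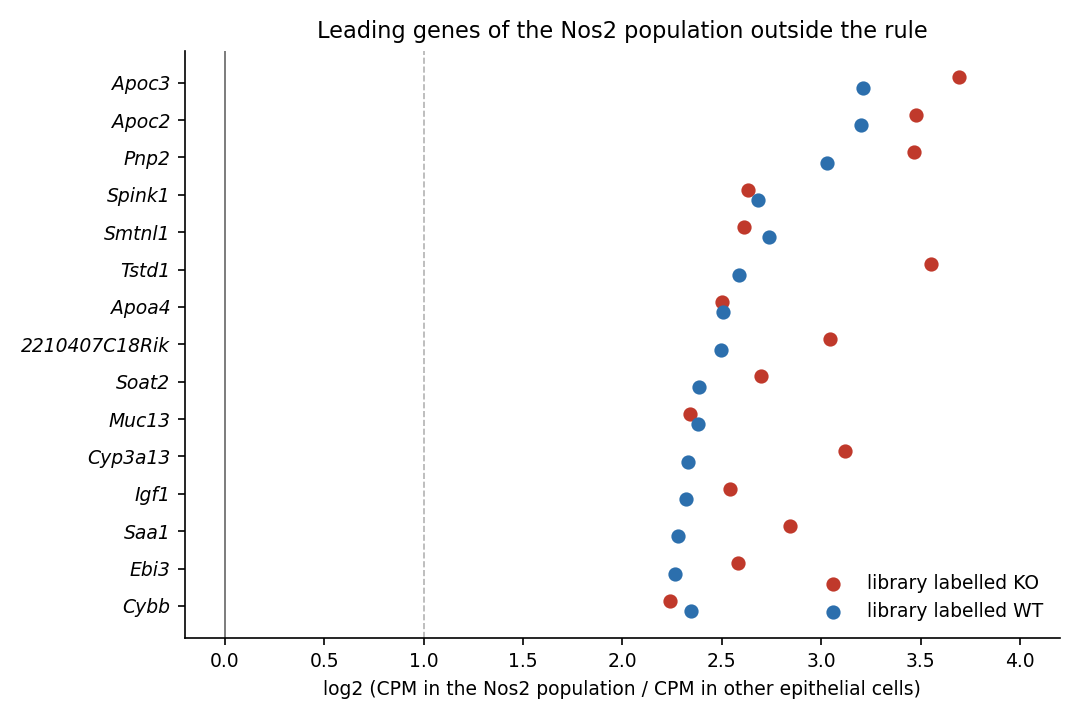
Log2 ratio of CPM in the Nos2 population over CPM in the other epithelial cells for the 15 leading genes outside the rule, with the KO-labelled library in red (upper point) and the WT-labelled library in blue (lower point), and a dashed line at 2-fold. Each point lies right of the dashed line, from Apoc3 at 3.69 and 3.21 to Cybb at 2.24 and 2.35.

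Wider gene lists were compared in the same way. Only genes past the minimum in members were counted, which favours genes high in members, so these counts too are a description. Of 32 brush border and absorption genes 12 passed the minimum and 7 were at least 2-fold higher than in the other epithelial cells in both libraries, among them Mttp, which loads lipid onto lipoproteins (86.3 CPM in KO-labelled and 72.2 CPM in WT-labelled members, against 19.0 and 21.7 CPM). Of 24 gut defence genes 15 passed and 6 were higher in this way, with Pigr, the carrier of secretory antibodies, at 206 and 163 CPM against 39.2 and 34.9 CPM. The whole list summed to 3581 and 3293 CPM in members and to 2670 and 3371 CPM in microfold-type cells, so it was not particular to members. Of 18 carboxylesterases 5 passed. Ces2a and Ces2e, of the same family as Ces2c, were at least 2-fold higher than in the other epithelial cells in both libraries. Ces2a stood at 47.9 and 33.9 CPM against 1.70 and 1.27 CPM there, and Ces2e at 286 CPM in subcluster 3, described below, against 15.1 CPM in the other members.

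Members also carried inflammatory transcripts beside Nos2. Some members had myeloid or other non-epithelial markers, as described below, and such cells were left out of the other epithelial cells only. Of 29 genes of the NF-kB and inflammatory list 24 passed and 6 were at least 2-fold higher in both libraries. The chemokine Ccl5 stood at 1059 and 1042 CPM against 213 and 401 CPM, Cxcl2 at 769 and 947 CPM against 253 and 311 CPM, and Tnf at 82.0 and 94.2 CPM against 20.1 and 25.02 CPM. The whole list summed to 6842 and 7002 CPM in members, to 6149 and 5963 CPM in microfold-type cells, and to 4773 and 5236 CPM in the other epithelial cells. Of 11 genes of the nitric oxide and arginine list past the minimum, 2 were at least 2-fold higher in both libraries, and the list's medians over the other epithelial cells were -0.07 and -0.03. Slc7a2, the cationic amino acid transporter that brings in the arginine used by nitric oxide synthase, stood at 83.7 and 47.8 CPM against 9.95 and 15.8 CPM, in 13.3% and 13.5% of members. Arg1, an arginase that uses the same substrate, stood at 19.0 and 16.0 CPM against 6.34 and 7.18 CPM.

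Members were also compared with microfold-type and Aire-high cells. Over microfold-type cells, 282 of 8436 genes (3.34%) were at least 2-fold higher in both libraries and 68 (0.806%) lower. Pigr led the higher ones, with 27.2 and 11.9 CPM in microfold-type cells, log2 ratios of 2.92 and 3.77 for members. Dapl1, Defb1, a beta-defensin, and Tnfaip6, a hyaluronan-binding protein, were also among them. Lower in members were the chemokine Ccl6 (33.2 and 33.9 CPM in members against 214 and 345 CPM in microfold-type cells) and Serpinb6a (216 and 159 CPM against 1097 and 909 CPM). Cybb differed less, with ratios of 0.54 and 0.88, as did Muc13 with 0.81 and 0.88.

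Over Aire-high cells, 825 genes (9.78%) were at least 2-fold higher in both libraries and 168 (1.99%) lower. Muc13 stood at 195 and 211 CPM in members and 5.82 and 8.19 CPM in Aire-high cells. Tstd1 and Lgals4, a galectin of gut epithelium, were likewise higher, with ratios of 5.62 and 4.14 for Tstd1 and 3.65 and 3.76 for Lgals4. Lower in members were Utf1, a chromatin factor of embryonic stem cells (90.6 and 82.5 CPM against 343 and 288 CPM), and Dut, an enzyme of nucleotide metabolism (25.9 and 33.4 CPM against 152 and 119 CPM). Fezf2 was lower by less than 2-fold, at 235 and 369 CPM in members against 446 and 566 CPM in Aire-high cells.

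Members differed among themselves. Clustered without the 13 rule genes, they fell into 5 subclusters at resolution 0.5, 4 at resolution 0.3 and 8 at resolution 1. Subcluster 1 held 85 KO-labelled and 110 WT-labelled cells and its leading genes included Ccr7, Slamf7, Hamp, Cd70 and Tnf, genes known from immune cells and, for Hamp, from liver. It held 51.5% of all Nos2 UMIs of members, at 584 CPM against 215 CPM in the other members, 49.9% of the Anxa10 UMIs and 44.7% of the Hnf4g UMIs. Its enterocyte list summed to 989.9 CPM against 1569 CPM in the other members. The subcluster with the highest Nos2 level was therefore not the one richest in enterocyte genes.

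Subcluster 3 had the highest enterocyte sum. It held 54 KO-labelled and 82 WT-labelled cells and its leading genes included Spink1, Ces2e, St3gal4, Gsta1, Apoc3, Apoa4 and Muc13. Its enterocyte list summed to 5336 CPM against 777 CPM in the other members, and 12 of the 15 genes were at least 2-fold higher. It held 62.5% of the Apoa4 UMIs, 68.1% of the Sis UMIs, 96.4% of the Ttr UMIs and 52.7% of the Prap1 UMIs, but 20.6% of the Hnf4g UMIs, and 71.7% of the Fabp2 UMIs lay in subcluster 2. The keratinocyte list was also higher in subcluster 3 than in the other members, at 1730 CPM against 322 CPM, and the microfold list at 1006 CPM against 452 CPM. Its Nos2 level was 338 CPM against 315 CPM, and its Aire level 67.6 CPM against 437 CPM. Its median depth was 4684.5 UMIs, the lowest of the 5.

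Subcluster 2 held 61 KO-labelled and 113 WT-labelled cells. Its leading genes included Psors1c2, Calca, Ucma and the metallothionein Mt2, with Aire at 635 CPM against 225 CPM in the other members and Fezf2 at 459 against 225 CPM. The Aire-stage list summed to 3976 CPM there, against 3209 CPM in the other members, less than the 4606 CPM of subcluster 1, and 4 of 8 cortical genes were at least 2-fold higher. Subcluster 4, with 18 and 32 cells, was led by Cd177, Chgb and the taste transducin Gnat3, and 8 of 9 tuft genes, 7 of 8 ciliated genes and 5 of 9 neuroendocrine genes were at least 2-fold higher there. Subcluster 5, with 15 and 10 cells, was led by Egfl7, Tcf15 and Cd93, with 8 of 8 endothelial genes higher, an endothelial sum of 1479.7 CPM against 103 CPM, and Aire at 557 CPM. Both carried genes of another cell type beside the rule genes, and whether these are doublets was not tested beyond the doublet scores. Subcluster genes define the subclusters and are not findings between them.

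**Figure D4:**
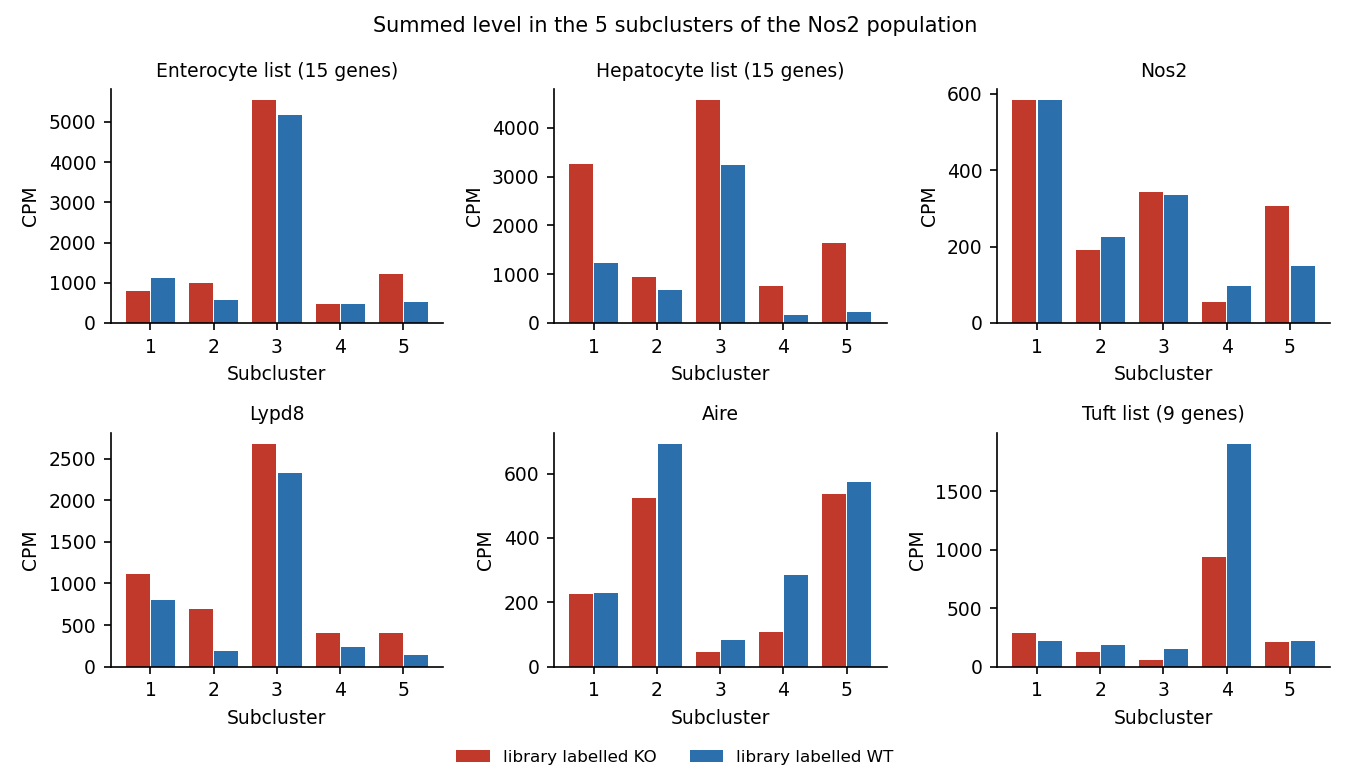
Summed level (CPM, bars starting at 0) of the enterocyte list, the hepatocyte list, Nos2, Lypd8, Aire and the tuft list in the 5 subclusters, with the KO-labelled library in red on the left and the WT-labelled library in blue on the right. The enterocyte list and Lypd8 are highest in subcluster 3, Nos2 in subcluster 1 and the tuft list in subcluster 4, in both libraries, while Aire is highest in subcluster 2 in the WT-labelled library only.

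The shares of the subclusters in each library were 36.5% of KO-labelled and 31.7% of WT-labelled members for subcluster 1, 26.2% and 32.6% for subcluster 2, and 23.2% and 23.6% for subcluster 3. Subclusters 4 and 5 took 7.73% and 9.22%, and 6.44% and 2.88%. The genes that define them differ between the libraries in part, so no change of makeup is read from these shares. Without subclusters 4 and 5 the population took 5.63% of the KO-labelled library and 7.63% of the WT-labelled one (-0.44 [-0.69, -0.19]).

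Some members carried markers of other cells. Of the 233 KO-labelled members 41, and of the 347 WT-labelled members 53, had a UMI in at least 3 genes of a non-epithelial list. Endothelial genes did so in 26 and 13 members and myeloid genes in 12 and 39 members. The 8 endothelial genes summed to 212 CPM in KO-labelled and 179 CPM in WT-labelled members, against 70.0 and 72.0 CPM in the other epithelial cells. The 9 myeloid genes, led by Lyz2, summed to 749 and 494 CPM against 287 and 239 CPM. Cells with at least 3 such genes had been set aside from the other epithelial cells and not from members, which by itself makes both sums higher in members. The same limit holds for the inflammatory and leading genes, whose ratios over the other epithelial cells were not taken without these members. Epcam was detected in 89.7% and 93.9% of members. Their part in the differences between libraries below was not tested beyond leaving these cells out.

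Within the population, levels in the KO-labelled library were set against those in the WT-labelled library to see what goes with the Foxp1 labels in these cells. Of 8436 genes, 111 (1.32%) were at least 2-fold higher in the KO-labelled library, 171 (2.03%) at least 2-fold lower, and 4142 (49.1%) above a ratio of 1, with a median log2 ratio of -0.01. Single cells set many of these. In 185 genes (2.19%) 1 cell held 30% or more of all UMIs, and 127 of the 282 genes past 2-fold (45.0%) were among them. Without the highest cell of each library 45 genes were higher and 120 lower, so the higher calls were 27.3% of all calls in place of 39.4%.

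Fezf2, Aire and Foxn1 were lower in the KO-labelled library. Of 16 genes of the list of mTEC maturation regulators, which holds Fezf2 and Aire but not Foxn1, 7 were higher and 9 lower, none past 2-fold, and the median was -0.06. Fezf2 (chr14:12342094-12348189, minus strand) stood at 235 CPM [215, 255] in KO-labelled and 369 CPM [350, 389] in WT-labelled members, a log2 ratio of -0.65 [-0.80, -0.51]. It had a UMI in 58.8% and 72.0% of members, and in 35.4% and 43.4% at 2000 UMIs per cell, where the ratio of shares of -0.30 [-0.61, 0.02] includes 0. Aire (chr10:78030022-78043610, minus strand) stood at 313 and 432 CPM, a log2 ratio of -0.47 [-0.59, -0.34]. The Aire ratio was -0.01 in subcluster 1, -0.40 in 2, -0.83 in 3, -1.38 in 4 and -0.10 in 5. Foxn1, the master factor of thymic epithelium, stood at 32.4 and 65.7 CPM (-1.02 [-1.42, -0.64]), with a UMI in 17.2% and 32.9% of members. At 2000 UMIs per cell the ratios of shares were -0.29 [-0.63, 0.04] for Aire and -0.91 [-1.84, 0.01] for Foxn1, and both include 0. In the other epithelial cells the same 3 ratios were -0.43, -0.24 and -0.86, so the lower level was not confined to the Nos2 population. The Fezf2 ratio was -0.93 in subcluster 1, -0.34 in 2, -1.01 in 3, -1.34 in 4 and 0.04 in 5, and -0.31 among members with at least 4 rule genes.

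Of the rule genes, Lypd8 differed most between libraries. It stood at 1070.5 CPM [1029, 1113] in KO-labelled and 627 CPM [602, 653] in WT-labelled members, a log2 ratio of 0.77 [0.69, 0.85], and was at 62.1 and 63.0 CPM in the other epithelial cells. At 2000 UMIs per cell 47.8% and 37.8% of members had a Lypd8 UMI (0.34 [0.06, 0.62]). It was higher in the KO-labelled library in each of the 5 subclusters, by 0.48, 1.88, 0.20, 0.78 and 1.61. The other rule genes lay closer together, with 0.39 for Saa3, 0.36 for Prap1, 0.20 for Ces2c, 0.04 for Nos2 and -0.13 for both Anxa10 and Fabp9. The Fabp9 ratio was -0.84 with equal weight per cell and 0.24 among members with at least 4 rule genes, so it gives no direction. Because members were chosen by these genes, the ratios compare cells that all had at least 3 of them.

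The gut lists were compared between the libraries next. Of the 12 enterocyte genes, 8 stood higher and 4 lower, 2 of them past 2-fold, and the median was 0.19, against -0.01 over all genes. Fabp1, the liver-type fatty acid binding protein, stood at 199.8 CPM in KO-labelled and 96.4 CPM in WT-labelled members (1.05 [0.85, 1.26]), but 66.1% of the KO-labelled UMIs lay in 1 cell. Fabp2 stood at 172 and 31.8 CPM (2.44), with 58.9% in 1 cell. Of the 15 endoderm factors 6 were higher and 9 lower, none past 2-fold, and of the 12 brush border genes 7 and 5, none past 2-fold.

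Hamp and C3 were higher in the KO-labelled library. The Hamp ratio of 1.47 [1.39, 1.56] was 1.28 without the highest cell of each library, and at 2000 UMIs 30.5% of KO-labelled and 20.6% of WT-labelled members had a UMI (0.57 [0.15, 0.99]). Subcluster 1 held 63.1% of the Hamp UMIs of members. In the other epithelial cells Hamp stood at 376 and 232 CPM (0.69). C3, the central complement protein, stood at 665 CPM [633, 699] and 409 CPM [388, 429.8], a ratio of 0.70 [0.60, 0.81], with a UMI in 58.0% and 41.3% of members at 2000 UMIs. Trf, transferrin, stood at 208 and 125 CPM (0.73). The plasma protein list, with 11 of 41 genes past the minimum, had 8 higher and 3 lower, 2 past 2-fold higher, and a median of 0.70. This median was 0.09 without members that had non-epithelial markers, 0.19 without subclusters 4 and 5, and 0.22 without the highest cell of each gene. Rbp4, at 67.7 and 10.05 CPM, had a ratio of 2.75, and of -1.63 without subclusters 4 and 5.

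Heat shock genes were lower in the KO-labelled library, inside the population and outside it. Hspa1a stood at 172 CPM [155, 189] in KO-labelled and 443 CPM [422, 465] in WT-labelled members, a log2 ratio of -1.37 [-1.53, -1.21]. Its near-identical copy Hspa1b stood at 205 and 485 CPM (-1.24), the co-chaperone Dnajb1 at 85 and 179.7 CPM (-1.08) and Hsph1 at 107 and 184 CPM (-0.77). At 2000 UMIs 31.0% and 49.4% of members had an Hspa1a UMI. The sum of these 4 genes was lower in all 5 subclusters, with log2 ratios of -1.09, -1.32, -0.96, -1.40 and -1.22. The ratios in the other epithelial cells were -0.88 for Hspa1a and -0.99 for Hspa1b. Library preparation and genotype cannot be told apart with 1 library each.

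Interferon-induced genes leaned the other way. Of 14 genes 13 passed the minimum, 11 were higher and 2 lower in the KO-labelled library, 1 of them past 2-fold, with a median of 0.32 against 0.14 for the same genes in the other epithelial cells. Isg15, a ubiquitin-like modifier, stood at 279 and 151 CPM (0.88 [0.72, 1.05]), with 25.2% of the KO-labelled UMIs in 1 cell and 0.53 without the highest cells. At 2000 UMIs 22.1% and 20.9% of members had an Isg15 UMI (0.08 [-0.39, 0.55]), so the share of cells did not show the difference. Rsad2, viperin, stood at 39.3 and 13.03 CPM (1.59), and Bst2, tetherin, at 179 and 122 CPM (0.55). The sum of the list was lower in subclusters 1 and 4 (-0.12 and -0.36) and higher in 2, 3 and 5 (0.58, 0.65 and 0.48).

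Antigen presentation was close in both libraries. Of 11 MHC class II genes, 3 stood higher and 8 lower, none past 2-fold, and their median ratio was -0.05. Cd74, the invariant chain, was detected in every member of both libraries, at 11140.0 and 11174 CPM. H2-Aa stood at 3853 and 4301 CPM (-0.16). The 24 NF-kB and inflammatory genes split 12 and 12 with a median of 0.00 and none past 2-fold. Of 14 tight junction genes, 12 stood higher and 2 lower, the median being 0.26, and Cldn7 stood at 969 and 749.9 CPM (0.37 [0.29, 0.45]).

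Of 7 tuft genes past the minimum 1 was higher and 6 lower, 5 of them past 2-fold, with a median of -1.33 against -0.60 in the other epithelial cells. Dclk1, a kinase of tuft cells, stood at 48.8 and 123 CPM (-1.33), in 16.3% and 23.3% of members, and the ratio of shares at 2000 UMIs was -0.77 [-1.71, 0.17]. The list was highest in subcluster 4, where it summed to 938 CPM in KO-labelled and 1904 CPM in WT-labelled cells. The log2 ratio of the tuft sum was 0.37 [0.09, 0.66] in subcluster 1, -0.53 in 2, -1.48 in 3, -1.02 in 4 and -0.06 in 5. Cortical genes split into 1 higher and 6 lower of 7 and 3 past 2-fold, Foxn1 and Prss16 among them, and Cd83 stood at 10.4 and 24.7 CPM. The cortical sum was lower in subclusters 1, 2 and 4 (-0.42, -0.66 and -0.93) and higher in 3 and 5 (0.44 and 0.19), and Prss16 was at -0.31 without the highest cells. Gsta1, a glutathione transferase of gut and liver, stood at 64.7 and 213 CPM (-1.72 [-1.98, -1.46]).

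The genes with the largest ratios by the counting interval rested on 1 cell in some cases. Among the 12 highest, Lmnb1 stood at 83.7 and 5.43 CPM (3.95), with 92.3% of the KO-labelled UMIs in 1 cell, and Slc44a4 at 119.9 and 9.50 CPM (3.66), with 84.5%. Erc2, Pcgf2, Tnni1, Klk1, Cul9, Cga, Bcl7a, Nudt1, Nexmif and Fancd2 followed, with between 31.7% and 85.8% of the KO-labelled UMIs in 1 cell. Among the 12 lowest, Jam3 stood at 14.2 and 88.0 CPM (-2.63), with 88.6% of the WT-labelled UMIs in 1 cell. Mt4, a metallothionein of stratified epithelium, was more spread, at 19.0 and 157 CPM (-3.05), with 21.7% in 1 cell. Gemin5, Ksr2, Phtf2, Npy, Klk14, Gip, Pomgnt1, Fabp6, Asap3 and Nt5m were the others. Without the highest cell of each library Lmnb1 was at 0.41, Slc44a4 at 1.09 and Pomgnt1 at -0.92, while Erc2 was at 3.13, Fancd2 at 1.72, Gemin5 at -3.04 and Mt4 at -3.30.

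Ranking by the share of members with a UMI at 2000 UMIs per cell, over 2222 genes, gave genes that do not rest on single cells. Highest in the KO-labelled library was Trps1, a zinc finger repressor, in 29.2% of 226 members and 13.8% of 320 members (1.09 [0.59, 1.58]), at 226 and 110.0 CPM. Tmem30a, Snhg1, Msln, Kdelr1, Ap1s1, Ehd1, Sppl2a, Srsf5, Fgd4, Rptn and C3 followed. These are extremes of 2222 genes in a single random thinning, and the summed levels did not always differ alike. The log2 ratio of CPM was 1.04 for Trps1 and 0.70 for C3, but -0.04 for Ap1s1, 0.15 for Ehd1 and 0.17 for Snhg1. Msln, mesothelin, was in 21.7% and 10.9% of members. Lowest was Crip3, a LIM domain protein, in 6.19% and 16.3% of members (-1.39 [-2.21, -0.58]), and it was also lower in the other epithelial cells (-1.05). Hspa1b, Braf, Fgf14, Macrod2, Hspa1a, Plxna2, Ppig, Hsph1, Nfat5 and Magoh were among those that followed, so 3 of the 12 lowest were heat shock genes. By summed level the log2 ratio was -0.88 for Fgf14 and -1.05 for Macrod2, but -0.16 for Braf and Magoh and -0.17 for Nfat5. Fgf14 was in 14.2% and 26.9% of members and Macrod2 in 14.6% and 26.9%.

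**Figure D5:**
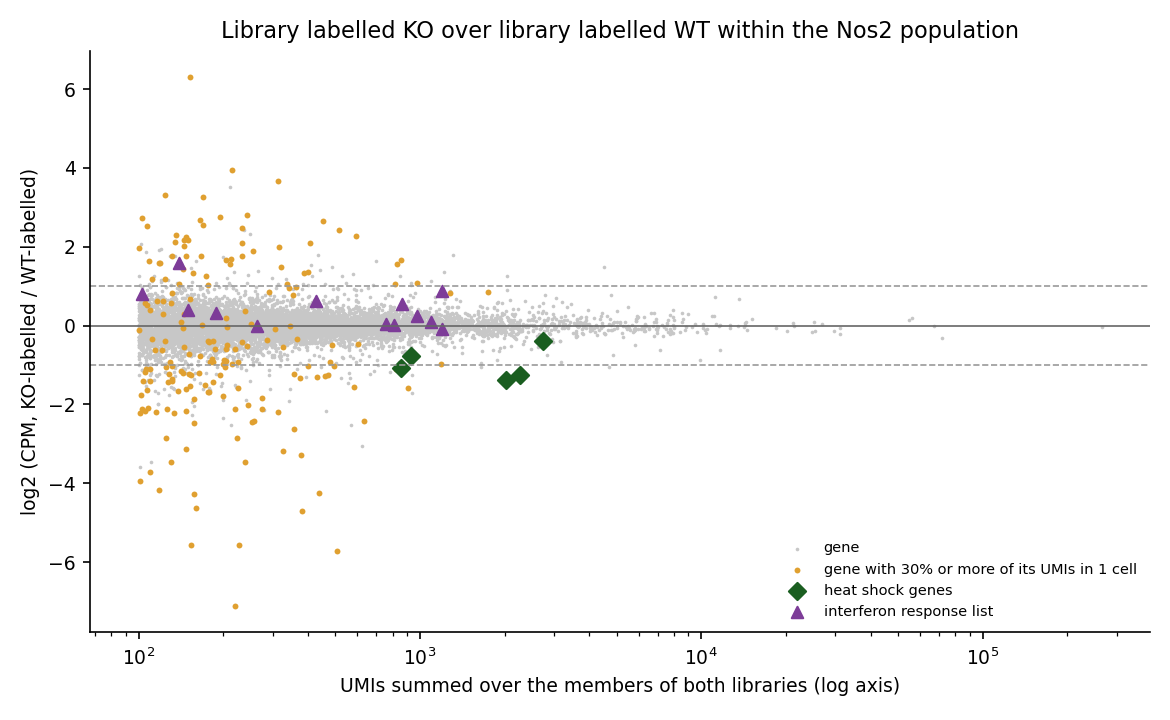
Log2 ratio of CPM, library labelled KO over library labelled WT, within the Nos2 population (vertical axis) against the UMIs of each of 8436 genes summed over members (log axis), with dashed lines at 2-fold. Orange points are genes with 30% or more of their UMIs in 1 cell, and they hold 127 of the 282 genes past 2-fold, while the 5 heat shock genes (green diamonds) lie below 0 and 11 of 13 interferon genes (purple triangles) above it.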

How the data were processed

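Single-cell RNA of sorted EPCAM+ mouse thymic cells was measured in 1 library labelled KO and 1 labelled WT. The deposited matrices hold raw UMI counts for 32285 features, written by Cell Ranger 7.0.1, per the file headers. Seurat and the build mm10 are also named, per the submitters' processing notes. The 3′ or 5′ chemistry was not stated. No column was left unmapped (0). The libraries held 25233944 and 33120715 UMIs, in that order.

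Cells were filtered and chosen as stated in the report. The members and gene lists were chosen with earlier results of these data known. Doublets were scored with Scrublet in scanpy 1.11.5, which called 0 and 2 cells, so it did not mark doublets here, and the 103 and 130 highest-scoring cells were left out as an alternative. Members were compared with microfold-type cells, Aire-high cells (at least 3 Aire UMIs) and the other epithelial cells. The last group overlaps the first ones. It holds all non-members without non-epithelial markers, so also Aire-high cells, and microfold-type cells and cells passing both gene rules without such markers. Cells with at least 3 genes of a non-epithelial list were set aside from the Aire-high and other epithelial cells, but not from members or microfold-type cells. UMIs were summed per library and class and given as CPM, for genes with at least 100 UMIs over members. Level intervals are exact Poisson, shares exact Clopper-Pearson, level ratios exact conditional binomial and share ratios large-sample, at 95%. PCR and cell-to-cell variation are not covered. The steps were tested on simulated data. Subclusters used 1500 variable genes, 15 components, 15 neighbours and the Leiden method (leidenalg 0.10.2). Named genes were the 15 leading ones detected in at least 20% of members, the 12 with the most extreme interval bounds in each direction detected in at least 5%, 8 each way against microfold-type and Aire-high cells, and the regulators and listed genes. The ranking by detected share was added after the data were seen. Python 3.11.15, numpy 2.4.6, scipy 1.17.1, pandas 2.3.3 and matplotlib 3.10.9 were used. Some items chosen by these rules are not reported here.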

Additional observations from a re-analysis of the deposited data

Results flagged for a closer look

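For 9 of 374 listed genes the ratio of the KO-labelled library over the WT-labelled library had opposite signs in the Nos2 population and in the other epithelial cells, with both log2 ratios at least 0.5 in size. The difference was not tested, since each group is 1 library. The chemokine gene Ccl22 had -1.17 in members and 0.61 in the other epithelial cells, and kept both signs without the highest cell of each library (-1.13 and 0.56). Cxcl5 had -0.85 and 1.05, from 7 KO-labelled and 9 WT-labelled members. Slc7a2, the arginine transporter, had 0.81 and -0.67, with 0.46 and -0.67 without the highest cells. Ltc4s, a leukotriene synthase, had 0.66 and -0.63, with 0.48 and -0.64 without them.

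Fabp2 had 2.44 and -1.02, from 11 KO-labelled and 15 WT-labelled members, and Krt13 had 2.18 and -1.05, from 6 members in each library. The thymus protease gene Prss16 had -1.04 and 2.17, with -0.31 [-1.02, 0.38] and 1.94 without the highest cells. A single WT-labelled member held 46 of its 101 UMIs, so its sign in members rested largely on that cell. In 2 other genes the signs were no longer opposite without the highest cells. Jam3 had -2.63 and 1.34, but 0.10 and 0.42 without the highest cells, and Reg3b had -1.69 and 0.51, but -1.81 and -0.95.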

How the results depend on the processing

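No paired analysis was possible because each group is 1 library, and no replicate could be left out. Of the summary values 54 stayed within the limits set and 8 moved. At least 2-fold higher and lower genes were 111 and 171 as reported, 556 and 812 with a minimum of 20 UMIs, 39 and 45 with a minimum of 300 UMIs, 19 and 26 with members thinned to 2000 UMIs, where fewer genes pass, and 45 higher without the highest cell of each gene. Resolution 1 gave 8 subclusters. Of the single values 631 stayed, 110 moved and 14 changed sign. With at least 4 rule genes, Nudt1 was at -0.41, Jam3 at 0.34, Asap3 at 0.25, Fabp9 at 0.24 and Hnf4g at -0.20. Without members with non-epithelial markers, Slc44a4 was at -0.0900 and Nudt1 at -0.93. Thinned, Cd86 was at 0.0867 and the Aire-stage median at 0.0461. Without subclusters 4 and 5, Nudt1 was at -0.97 and Rbp4 at -1.63. Without the highest cells, Bcl7a was at -0.0444, Nudt1 at -0.0866 and Jam3 at 0.10. The cause was not tested where the setting does not show it. Depth limits genes near the minimum of 100 UMIs, and no value has a replicate.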

Other observations

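Of 14 costimulatory and chemokine genes past the minimum, 3 were at least 2-fold higher than in the other epithelial cells in both libraries and 1 lower. Cd70, a ligand of CD27, a member of the tumour necrosis factor receptor family, stood at 210 CPM in KO-labelled and 184 CPM in WT-labelled members, against 61.4 and 58.2 CPM in the other epithelial cells. Tnfsf9, the 4-1BB ligand, stood at 60.8 and 70.3 CPM against 19.9 and 32.2 CPM. Of the same 14 genes, 5 stood higher and 9 lower in the KO-labelled library, and the median was -0.19. Ccl21a, a chemokine of a separate medullary lineage, was low in members, at 529 and 644 CPM against 3444 and 1952 CPM.

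Of 18 cell death genes, 10 were higher and 8 lower in the KO-labelled library, none past 2-fold. Of 10 genes of the unfolded protein response 3 were higher and 7 lower, with Hspa5, the chaperone of the endoplasmic reticulum, at 532 and 639 CPM (-0.27 [-0.37, -0.17]). Among fatty acid binding proteins, Fabp4 stood at 1715 and 1674 CPM against 589 and 711 CPM, and Fabp5 at 4328 and 4085 CPM against 2536 and 2798 CPM.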
